A study of Mus musculus with 6 samples.

Results

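The Wnt genes described here are the secreted ligands of the Wnt family, their receptors and the proteins that modulate or transmit the signal. A probe was included when the platform annotation gave it a single gene symbol that starts with Wnt and a digit, with Fzd or Dkk and a number, or with Sfrp, or that is Lrp5, Lrp6, Axin1, Axin2, Ctnnb1, Tcf7, Tcf7l1, Tcf7l2, Lef1, Porcn or Wif1. This gave 44 of the 20289 probes on the array, for 42 of the 13769 genes named by a single symbol. No probe with a single symbol was found for Tcf7. Expression was measured in the urogenital ridge, the strip of embryonic mesoderm and its covering epithelium from which gonad and early kidney form, on single-colour CodeLink arrays. Wild-type Mf1 mouse embryos were compared with Mf1 embryos homozygous for a deletion of Wt1, the zinc finger transcription factor gene of Wilms tumour, with 3 arrays of each genotype and 6 in all. Both genotypes were taken at E11.5, at 11 to 12 tail somites. The RNA for an array is described as coming from 5 embryos, of which 4 were female and 1 was male. Whether different embryos went into each array of a genotype is not stated, so p-values here measure only how far these arrays spread, which may be technical.

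Wnt proteins are secreted lipid-modified ligands that need the acyltransferase Porcn to leave the cell. They bind Frizzled receptors, and in the canonical branch also the co-receptors Lrp5 and Lrp6, upon which a destruction complex built on Axin releases β-catenin (Ctnnb1) to act with TCF and LEF factors in the nucleus. Sfrp proteins and Wif1 bind the ligands themselves, and Dkk proteins act on the co-receptors. In this tissue Wnt4 is known for its part in kidney tubule formation, in growth of the Müllerian duct and in early ovary development.

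The deleted gene codes for a factor that binds G-rich DNA, so the 250 bases before the annotated start are shown for 2 ligand genes that were lower in the knockout, Wnt4 and Wnt6, and for 1 that was higher, Wnt2b. The sequences are from RefSeq, build GRCm38.p6, and lie at chr4:137277385-137277634 on the plus strand (Wnt4), chr1:74771642-74771891 on the plus strand (Wnt6) and chr3:104961710-104961959 on the minus strand (Wnt2b). Each is written 5′ to 3′ in the direction of the gene. Capitals mark matches to GTGGGNG, the core of the sites bound by WT1 and the related EGR factors, read on both strands, so that a match on the opposite strand appears as CNCCCAC.
Wnt4: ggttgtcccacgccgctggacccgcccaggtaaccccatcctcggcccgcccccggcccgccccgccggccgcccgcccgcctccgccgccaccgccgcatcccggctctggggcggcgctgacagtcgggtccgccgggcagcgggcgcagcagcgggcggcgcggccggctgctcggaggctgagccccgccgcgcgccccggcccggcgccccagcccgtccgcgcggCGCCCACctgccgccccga
Wnt6: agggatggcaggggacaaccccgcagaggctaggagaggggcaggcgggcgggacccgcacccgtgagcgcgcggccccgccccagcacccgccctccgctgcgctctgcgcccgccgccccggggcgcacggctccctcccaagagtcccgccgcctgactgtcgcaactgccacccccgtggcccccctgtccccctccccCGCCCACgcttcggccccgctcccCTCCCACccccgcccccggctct
Wnt2b: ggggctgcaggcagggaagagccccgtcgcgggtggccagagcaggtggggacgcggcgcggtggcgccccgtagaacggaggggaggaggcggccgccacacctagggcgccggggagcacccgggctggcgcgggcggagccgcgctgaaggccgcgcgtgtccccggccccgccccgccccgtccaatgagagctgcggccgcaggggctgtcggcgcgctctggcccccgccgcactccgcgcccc
The Wnt4 window held 1 match, which begins 19 bases before the start. The Wnt6 window held 2, beginning 47 and 23 bases before it, and the Wnt2b window held 0. All of these windows are rich in G and C, at 85.2% for Wnt4, 79.6% for Wnt6 and 80.8% for Wnt2b. Among all 32851 windows of this length, 28.1% held the motif, with a median GC content of 52.4%. Of the 42 genes, 27 had a sequence, in 35 windows (some genes have several starts), and 21 of these windows (60%) held it, with a median GC content of 68.0%. The TCF/LEF motifs CTTTGAA and CTTTGAT, which do not overlap GTGGGNG, were in 2 of the 35 windows (5.71%), against 7.48% of all windows. A match describes the letters in the window and does not mark a bound site, and how far the difference in base composition goes with the difference in share was not tested. Wnt4, Wnt6 and Wnt2b were picked by no stated rule. Ligand genes with larger called changes than Wnt6, such as Wnt8a and Wnt5b, are not shown. Whether the motif goes with the direction of change was not tested.

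Intensities are the deposited values, scaled so that the median probe of each array lies between 0.956 and 0.966. A probe was tested if its mean log2 value lay above the 25th percentile of all probes, an intensity of 0.217, and a change was called at adjusted p under 0.05 in limma (Benjamini-Hochberg over all 15062 tested probes). Across the array 41.3% of tested probes were called, 24.1% as higher and 17.2% as lower in the knockout. The arrays carried the loss of Wt1 signal, from 42.3 ± 2.77 to 14.7 ± 0.788 (SD, n = 3 each) on the brighter of its 2 probes. Whether these probes lie in the deleted stretch is not given in the sources used here. Of 10 tested markers of the ridge, 5 were lower, Wt1 itself among them, and 3 higher. The gonadal homeobox gene Lhx9 fell 3.78-fold and the nuclear receptor gene Nr5a1 1.32-fold, whereas the gonadal factor gene Gata4 had a log2 change of -0.06. The 3 that were higher were Gata3 (1.73-fold), Osr1 (1.55-fold) and Tcf21 (1.30-fold). The 11 ridge markers on the array summed to 90.4 to 93.8 per wild-type array and 67.5 to 71.6 per knockout array. That sum includes the deleted gene Wt1, which alone fell by more than the sum did. Of 9 tested somite and muscle markers, 7 were higher and 0 lower, with sums of 26.2 to 27.1 against 43.1 to 47.0. None of these markers with values was at or below 0 on all arrays, and the part of somite RNA in the Wnt values was not tested. As whole ridges were measured, fewer cells of a type and less RNA per cell cannot be told apart in any of the values that follow.

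Of the 42 Wnt genes, each represented by its brightest probe, 33 were tested and 18 of these (54.5%) were called. They were 10 lower (30.3%) and 8 higher (24.2%) in the knockout, and the other 15 tested genes did not pass. Among the genes above the test limit in both genotypes, the largest called falls were in the transcription factor gene Tcf7l2 and the ligand gene Wnt4, and the largest called gains in the ligand genes Wnt8a and Wnt2b. The co-receptor gene Lrp6 fell to below that limit. It is 1 of 4 tested genes, with Porcn, Fzd8 and Fzd9, that passed the filter through the mean of 1 genotype. The share of genes called higher was close to the 24.1% of the whole array, and that of genes called lower was above its 17.2%. Changes that also reached 1.5-fold were found for 7 genes (21.2%), against 15.5% of all tested probes. These were 5 lower genes, against 8.68% of all tested probes that were lower by that much, and 2 higher genes, against 6.83%. At 22 of the 33 genes all knockout arrays lay on one side of all wild-type arrays, against 52.8% of all tested probes with values on every array. The median log2 change of the 33 genes was -0.10, beside 0.09 over all tested probes. It had no stable sign, since it was 0.0048 without wild-type array 1 and 0.17 without knockout array 3. The number of genes called fell to 10, 5 in each direction, when wild-type array 2 was left out. Of the 18 calls, 9 held under all of the 14 other settings that tested the gene: those of Wnt4, Wnt2b, Wnt7a, Wnt8a, Fzd3, Lrp6, Axin1, Ctnnb1 and Tcf7l2.

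**Figure D1:**
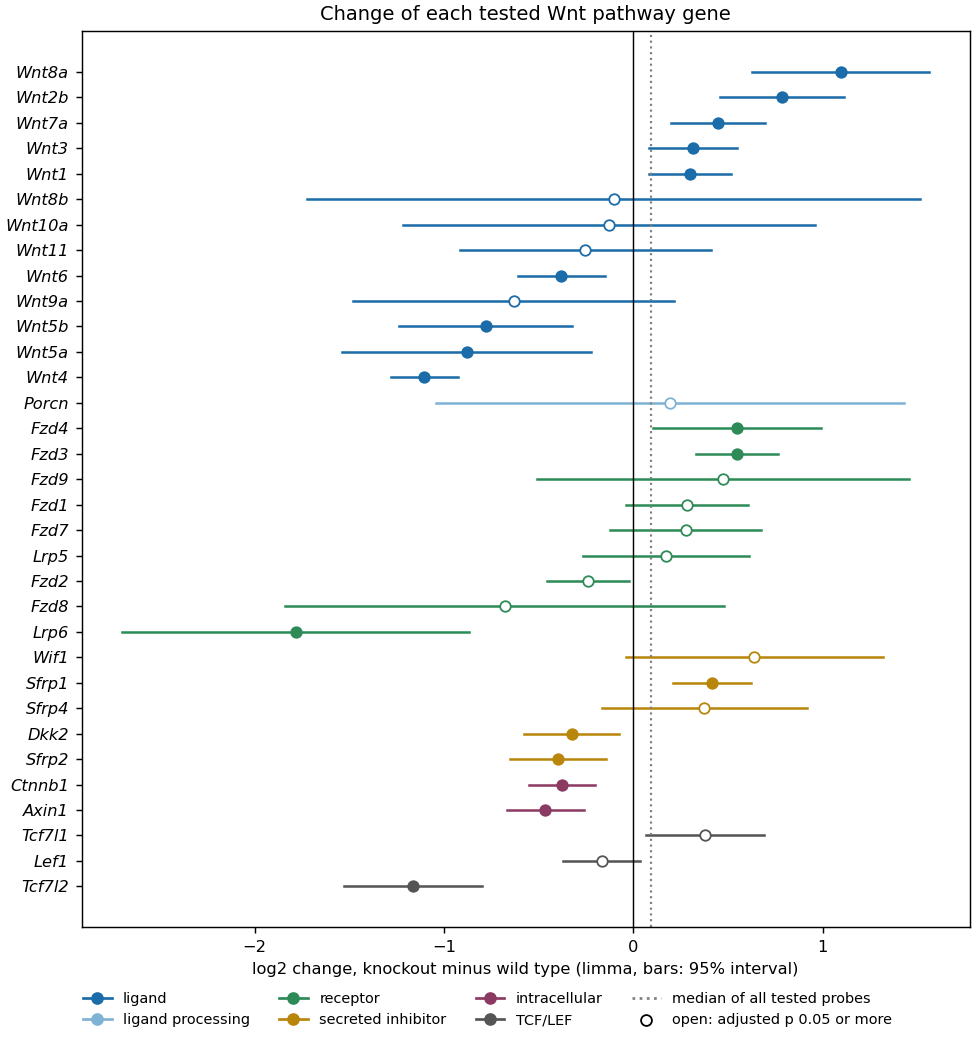
The log2 change of each of the 33 tested Wnt genes in knockout against wild type (horizontal axis, 3 arrays per genotype), with its 95% interval from limma, is grouped by role. Filled points passed adjusted p under 0.05, and the dotted line marks the median of all tested probes at 0.09; ligands lie on both sides of 0, from Wnt8a at 1.10 to Wnt4 at -1.10.

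Among the ligands, 17 genes were on the array and 13 were tested, of which 4 were lower, 5 higher and 4 did not pass. These are 30.8% lower and 38.5% higher, beside 17.2% and 24.1% of all tested probes. Whether the shares of so few genes differ from those of the array was not tested, here or for the other roles. Wnt4 was lower in the knockout by both probes that measure it. Probe 11278, the brighter one, read 39.7, 40.3 and 39.5 in wild type and 20.8, 17.2 and 17.8 in knockout. On the other probe (4772) the values were 14.3, 13.8 and 13.4 in wild type and 4.78, 6.29 and 5.82 in knockout. The highest knockout array thus lay far below the lowest wild-type array on each probe. The log2 change was -1.10 ± 0.08 (SE, adjusted p = 1.83e-06), or 2.15-fold, on the brighter probe, and -1.31 ± 0.10 (adjusted p = 2.01e-06), or 2.48-fold, on the other. On the brighter probe the 95% interval of the log2 change ran from -1.28 to -0.93. Both calls held under all 14 other settings, with log2 changes of -1.29 to -1.05 on the brighter probe and -1.39 to -1.20 on the other.

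The genes of the pair Wnt5a and Wnt5b, ligands known mainly for β-catenin-independent signalling, were lower as well. Wnt5b had intensities of 0.891, 0.994 and 0.870 in wild type and 0.379, 0.600 and 0.668 in knockout, without overlap. Its log2 change was -0.78 ± 0.21 (SE), 1.72-fold, with adjusted p = 0.0106, and the call ended without wild-type array 2 (adjusted p = 0.0535). Wnt5a had 0.679, 0.682 and 0.585 in wild type and 0.581, 0.237 and 0.315 in knockout. Its knockout array 1 lay just under the lowest wild-type array, while the other knockout arrays were far lower. The log2 change of Wnt5a was -0.88 ± 0.30 (SE), with adjusted p = 0.0347, and the call was lost in 7 of 13 other settings, among them those without any 1 of the wild-type arrays or without knockout array 2 or 3, where adjusted p reached 0.111. Wnt6, a ligand made by many epithelia, fell 1.30-fold, from 2.80 ± 0.291 to 2.15 ± 0.196 (SD, n = 3 per genotype, with adjusted p = 0.0123). That call ended without wild-type array 2 or 3 (adjusted p up to 0.0668).

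The 5 ligand genes that were higher included 2 with a change of at least 1.5-fold. Wnt2b had intensities of 0.660, 0.633 and 0.531 in wild type and 0.951, 1.13 and 1.06 in knockout, with every knockout array above every wild-type array. The log2 change was 0.78 ± 0.15 (SE), 1.72-fold, with adjusted p = 0.00136. Wnt8a, a ligand known from the early posterior embryo, had 0.410, 0.338 and 0.508 in wild type and 0.705, 1.03 and 0.946 in knockout, again without overlap. Its log2 change was 1.10 ± 0.21 (SE), 2.14-fold, with adjusted p = 0.00158. Wnt7a, needed for dorsal limb patterning and for development of the Müllerian duct, rose 1.36-fold from 3.35 ± 0.218 to 4.60 ± 0.743 (SD, n = 3 per genotype, with adjusted p = 0.00808). Of 6 tested limb and body wall markers, 2 were higher (33.3%, beside 24.1% of all tested probes), 0 lower and 4 did not pass. The 2 were En1 (3.06-fold) and Tbx5 (1.22-fold). The part of limb or body wall RNA in the Wnt7a values was not tested.

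Wnt1 and Wnt3, both ligands of the dorsal neural tube, rose less. Wnt1 went from 1.72 ± 0.0927 to 2.12 ± 0.183 (1.23-fold, adjusted p = 0.0306) and Wnt3 from 2.38 ± 0.253 to 2.97 ± 0.306 (1.25-fold, adjusted p = 0.0324; SD, n = 3 each). The arrays of Wnt3 overlapped, those of Wnt1 did not. Each lost its call in 6 of 14 other settings, with adjusted p up to 0.124 for Wnt1 and 0.125 for Wnt3. For Wnt1 these included the settings without any 1 of the wild-type arrays or without knockout array 2, and for Wnt3 those without wild-type array 1 or 2 or knockout array 1 or 3. Of 8 neural tube markers on the array, 5 were tested, of which Zic1 was higher, Lmx1a lower and Sox1 did not pass. Dbx1 and Nkx2-2 were called higher as well, but lay under the test limit in wild type and were tested because of their knockout values. The summed intensity of the 8 was 4.26 to 4.64 on the wild-type arrays against 31.4 to 34.3 on the knockout arrays. Most of that sum is Zic1, a gene of the dorsal neural tube and somites, at 29.5 ± 1.59 in knockout against 1.51 ± 0.112 in wild type. The roof plate gene Lmx1a, by contrast, fell 3.0-fold, from 1.90 ± 0.209 to 0.632 ± 0.0503 (SD, n = 3 each). The part of neural tube RNA in the values of Wnt1 and Wnt3 was not tested.

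The 4 tested ligand genes that did not pass were Wnt8b, Wnt9a, Wnt10a and Wnt11, with log2 changes of -0.10, -0.63, -0.13 and -0.25 and intervals that all include 0. The interval for Wnt9a ran from -1.48 to 0.21 and that for Wnt8b from -1.72 to 1.52, so falls as large as that of Wnt4 could not be told from none. Another 4 ligand genes, Wnt2, Wnt3a, Wnt7b and Wnt10b, were too dim to be tested, with array values from -0.0463 to 0.292. Of these, Wnt7b had 0.142, 0.0801 and 0.114 in wild type and 0.199, 0.292 and 0.267 in knockout, and it passed at adjusted p = 0.0424 when no filter on dim probes was used and 29.3% of probes were called. Porcn, the enzyme that acylates the ligands, was near the limit for testing and had a log2 change of 0.19 with an interval from -1.04 to 1.43.

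**Figure D2:**
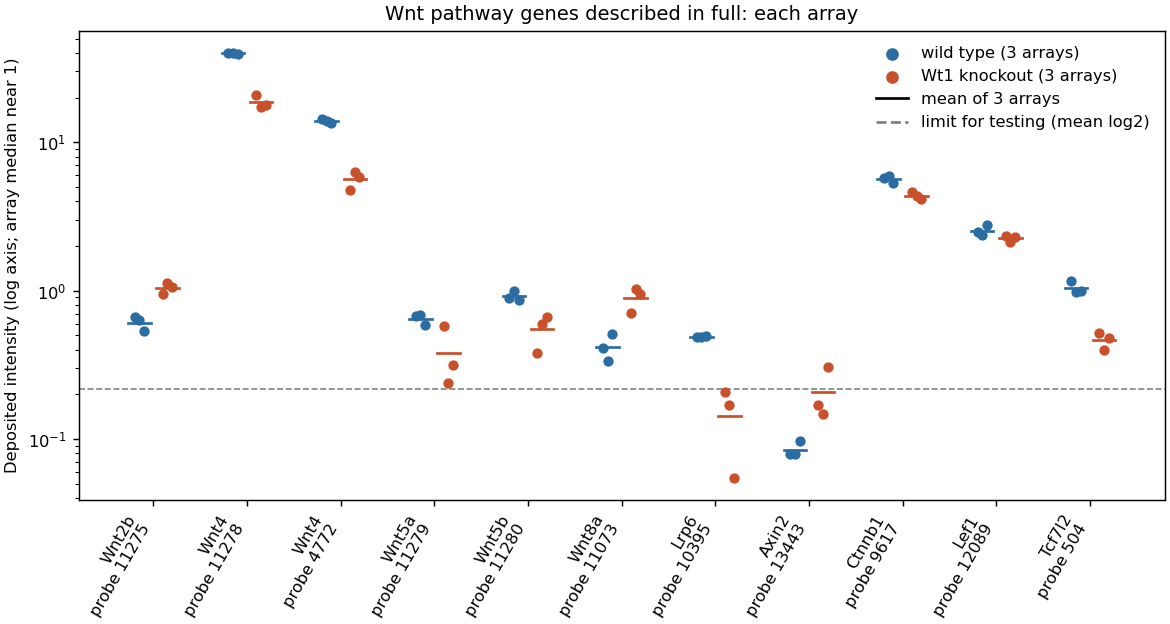
Deposited intensity on each array (log axis) is shown for the 11 probes of the 10 Wnt genes described in full, with wild-type arrays in blue, knockout arrays in orange and a line at the mean of 3 arrays. Wnt4 is lower in the knockout on both probes, Wnt2b and Wnt8a are higher, and the knockout values of Lrp6 and most values of Axin2 lie under the dashed limit at 0.217.

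To set Wnt4 against the other ligands, the log2 intensity of each of the 12 other tested ligand genes was subtracted from that of Wnt4 on the same array. A factor common to a whole array cancels in this way, while scaling that varies with intensity does not. The difference between Wnt4 and the median of the other ligands was 5.89, 5.94 and 6.04 on the wild-type arrays and 5.02, 4.45 and 4.48 on the knockout arrays. These differences mix probe brightness with expression, so only their change between genotypes is read. Wnt4 fell by 1.30 on the log2 scale against that median, and its second probe fell by 1.51, with no overlap between genotypes on either probe. In the exact permutation test over arrays (two-sided) both gave p = 0.10, the smallest that 3 arrays against 3 allow, and adjusted p = 0.153 over the 26 comparisons made with the 2 probes. On the brighter probe the log2 change against the median was -1.50 after quantile normalization and -1.40 after cyclic loess.

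Against each of the 12 ligands, the change of Wnt4 was the more negative one on both probes. This follows from Wnt4 having the largest fall of the tested ligand genes and is no separate result. All comparisons made with a probe also share the same Wnt4 values. On the brighter probe the difference ran from -2.20 against Wnt8a to -0.22 against Wnt5a, and the genotypes did not overlap for 7 of the 12. These 7 were Wnt1, Wnt2b, Wnt3, Wnt6, Wnt7a, Wnt8a and Wnt11, of which all but Wnt6 and Wnt11 were themselves called higher. By themselves, 52.8% of all tested probes with values on every array had genotypes that did not overlap. The same comparison of Wnt4 with probes outside the ligands was not made. The difference from Wnt6, the other ligand that fell among those with clear separation, was -0.72, with 4.002, 3.80 and 3.70 on the wild-type arrays and 3.14, 3.12 and 3.08 on the knockout arrays. Against Wnt5a (exact permutation p = 0.70) and Wnt5b (exact p = 0.40) the arrays overlapped, with differences of -0.22 and -0.32. On the second probe 8 of the 12 did not overlap, Wnt5b being the one added.

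**Figure D3:**
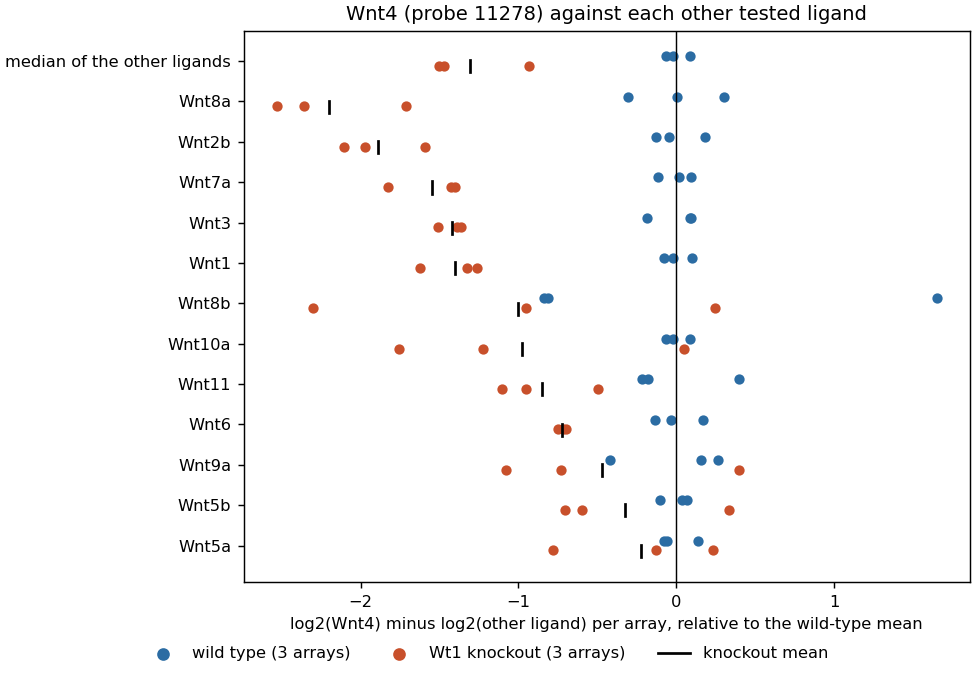
The within-array log2 difference between Wnt4 (brighter probe) and each other tested ligand is drawn relative to its wild-type mean, with 3 wild-type arrays in blue, 3 knockout arrays in orange and the knockout mean as a black bar. The knockout arrays lie left of all wild-type arrays for the median of the other ligands and for 7 single ligands, and overlap with them for Wnt5a, Wnt5b, Wnt8b, Wnt9a and Wnt10a.

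Among the receptors, 9 of 11 genes were tested, of which 1 was lower, 2 were higher and 6 did not pass. These are 11.1% lower and 22.2% higher, beside 17.2% and 24.1% of all tested probes. Lrp6, a co-receptor of the canonical branch, had 0.488, 0.484 and 0.492 in wild type and 0.208, 0.169 and 0.0543 in knockout. All knockout values lay below the limit of 0.217, and the probe was tested because of its wild-type values, so its fold is a lower bound set against that limit, at least 2.25-fold lower. The fitted log2 change was -1.78 ± 0.42 (SE, adjusted p = 0.00508) and depends on the floor set for low values. The related co-receptor gene Lrp5 had a log2 change of 0.17, with an interval from -0.27 to 0.61. Whether the 2 co-receptors differ was not tested.

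The 7 tested Frizzled genes held no fall past the threshold, beside 17.2% of all tested probes called lower. They held 2 rises (28.6%), beside 24.1% of all tested probes called higher. Fzd3, a receptor known from axon guidance and planar polarity, rose 1.46-fold, with intensities of 2.71, 3.05 and 2.72 in wild type and 3.70, 4.62 and 4.10 in knockout (adjusted p = 0.000917). Fzd4, a receptor needed in blood vessels, also rose 1.46-fold, from 0.559 ± 0.103 to 0.821 ± 0.179 (SD, n = 3 each). That call, at adjusted p = 0.0481, was lost in 8 of 13 other settings, among them quantile normalization (adjusted p = 0.0582) and the settings without wild-type array 2 or 3 or knockout array 2, and adjusted p reached 0.178. Of 4 tested endothelial markers, 3 were lower, Pecam1 (2.49-fold), Emcn (1.76-fold) and Tek (1.64-fold). The other, Kdr, was higher (1.19-fold). The part of vessel RNA in the Fzd4 values was not tested. Fzd2 had a sign opposite to that of Fzd3 and Fzd4, at 3.51 ± 0.0952 against 3.0 ± 0.372 (log2 change -0.24, adjusted p = 0.0748), and passed as lower only without knockout array 1 or 2. Fzd1, Fzd7, Fzd8 and Fzd9 had log2 changes of 0.28, 0.28, -0.68 and 0.47 and did not pass, although Fzd7 passed as higher without knockout array 2. Fzd5 and Fzd6 were too dim to be tested, with values from 0.0582 to 0.371.

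Of the 7 secreted inhibitor genes, 5 were tested, with 2 lower, 1 higher and 2 that did not pass. These are 40% lower and 20% higher, beside 17.2% and 24.1% of all tested probes. Sfrp1, which binds Wnt ligands, had 54.8, 49.96 and 53.1 in wild type and 60.8, 78.0 and 72.9 in knockout on its brighter probe, and 10.1, 9.90 and 10.6 against 13.6, 12.2 and 11.7 on the other. The knockout arrays were higher on both probes without overlap, by 1.33-fold (adjusted p = 0.00393) and 1.23-fold (adjusted p = 0.0100). The call depended on the scaling between arrays, however. On the brighter probe the log2 change went from 0.42 to 0.16 under quantile normalization (adjusted p = 0.139) and to 0.18 under cyclic loess (adjusted p = 0.10). On the other probe the call also ended under cyclic loess and without wild-type array 2 (adjusted p up to 0.0577).

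Sfrp2, its close relative, went the other way and fell 1.32-fold, from 3.42 ± 0.234 to 2.61 ± 0.420 (SD, n = 3 per genotype, with adjusted p = 0.0162). Dkk2, a ligand of the co-receptors, fell 1.25-fold, from 1.45 ± 0.124 to 1.16 ± 0.0820 (adjusted p = 0.0378). Neither fall was firm. That of Sfrp2 ended without wild-type array 2 or 3 or knockout array 2, and without an intensity trend in the variance prior (adjusted p up to 0.0779), and that of Dkk2 without wild-type array 1 or 2 or knockout array 2 or 3, under cyclic loess and with no filter on dim probes (adjusted p up to 0.144). Wif1 and Sfrp4 had log2 changes of 0.64 and 0.38 and did not pass, although Sfrp4 passed as higher without knockout array 3. Dkk4 and Sfrp5 were not tested, with values from 0.0398 to 0.241.

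Inside the cell, both tested genes of the β-catenin complex were lower by a small and even amount, beside 17.2% of all tested probes called lower. Ctnnb1, which encodes β-catenin, had 5.72, 5.94 and 5.35 in wild type and 4.62, 4.37 and 4.12 in knockout, a 1.30-fold fall (log2 change -0.38 ± 0.08, SE, adjusted p = 0.00286). Axin1, the scaffold of the destruction complex, fell 1.38-fold, from 2.18 ± 0.124 to 1.58 ± 0.0525 (SD, n = 3 per genotype, with adjusted p = 0.00184). These genes have opposite roles, since β-catenin carries the signal and Axin1 limits it. Axin2, the second scaffold and a widely used readout of β-catenin activity, was too dim to be tested, at 0.0794, 0.0788 and 0.0964 in wild type and 0.170, 0.147 and 0.305 in knockout. Its knockout values were the higher ones on every array, but 5 of the 6 values lay under the limit for testing, and without that filter it missed the threshold (adjusted p = 0.0675).

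The TCF and LEF genes differed in their calls. Tcf7l2 had 1.17, 0.974 and 0.989 in wild type and 0.517, 0.400 and 0.482 in knockout, a 2.24-fold fall without overlap (log2 change -1.16 ± 0.17, SE, adjusted p = 0.000191). Tcf7l1, which often acts as a repressor, had 1.08 ± 0.0822 and 1.43 ± 0.278 (SD, n = 3 each) and missed the threshold at adjusted p = 0.0512. It passed as higher in 4 of 14 other settings, among them cyclic loess and the setting without knockout array 2. Lef1, itself a target of the pathway in many tissues, had 2.48, 2.37 and 2.76 in wild type and 2.35, 2.12 and 2.30 in knockout. All knockout arrays lay slightly below the wild-type ones, yet the log2 change of -0.17, with an interval from -0.37 to 0.04, did not pass (adjusted p = 0.17).

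The wider pathway was read from a list of other Wnt components, of which 57 were on the array and 52 were tested. Of these, 11 were higher, 11 lower and 30 did not pass, with a median log2 change of 0.03 beside 0.09 over all tested probes. The share called, 42.3%, was close to the 41.3% of the whole array. Under quantile normalization the counts were 5 higher and 12 lower, so the balance depended on the scaling. The largest changes were in Ptk7, a co-receptor of planar polarity, which fell 2.78-fold from 5.98 ± 0.324 to 2.15 ± 0.129 (SD, n = 3 per genotype, with adjusted p = 3.01e-07), and in Csnk1d, a casein kinase, which fell 2.42-fold from 1.46 ± 0.0633 to 0.689 ± 0.421. Celsr3, a planar polarity cadherin of neurons, rose 2.31-fold, and Tle5, a short member of the Groucho corepressor family, fell 2.29-fold. Rspo1, a secreted amplifier of Wnt signals that acts with Wnt4 in the early ovary, fell 1.64-fold, from 12.5 ± 0.718 to 7.59 ± 0.316 (adjusted p = 2.25e-05). Frzb, a ligand-binding inhibitor related to the Sfrp genes, rose 1.59-fold, from 3.16 ± 0.436 to 5.03 ± 0.649 (adjusted p = 0.000687). Rspo1 and Frzb were chosen after their values were seen. The call of Csnk1d ended without an intensity trend in the variance prior, while those of Ptk7, Celsr3, Tle5, Rspo1 and Frzb held in all settings.

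Genes known as targets of β-catenin signalling in some tissue were read from a second list, which leaves out Axin2 and Lef1, described above. It was chosen with earlier results of these data known, and had 24 genes on the array and 23 tested. Of these, 9 were lower, 3 higher and 11 did not pass, and the counts were the same under quantile and cyclic loess normalization. These are 39.1% lower and 13.0% higher, beside 17.2% and 24.1% of all tested probes. As the list was chosen in that way, the difference in shares is a description only and was not tested. The array-wide split depended on the scaling. It was 3043 higher and 2954 lower under quantile normalization, and 2970 and 3028 under cyclic loess. The list's median log2 change was -0.22, beside 0.09 over all tested probes. It was -0.23 beside 0.03 under quantile normalization and -0.24 beside 0.02 under cyclic loess. Fst, which encodes follistatin and is a target of Wnt4 in the ovary, had 1.85, 2.17 and 1.87 in wild type and 1.01, 1.01 and 1.07 in knockout, a 1.90-fold fall (adjusted p = 3.99e-05). The homeobox gene Msx1 fell 1.85-fold, from 4.98 ± 0.138 to 2.70 ± 0.227, and Ccnd1, which encodes cyclin D1, fell 1.74-fold, from 1.21 ± 0.0779 to 0.709 ± 0.170. Sp5, a transcription factor gene that β-catenin induces in many tissues, had 1.73, 1.75 and 1.68 in wild type and 1.03, 1.06 and 0.941 in knockout, a 1.71-fold fall (adjusted p = 0.000126). Each of these 4 genes answers to other signals too, and their calls held in all settings that tested them. The genes that rose were Fgf9, Cdx1 and Jun, by 1.68-fold, 1.54-fold and 1.42-fold, named after their values were seen. Second probes of Fgf9 and Cdx1 were too dim to be tested, with overlapping genotypes. Their means were 0.123 in wild type and 0.174 in knockout for Fgf9, and 0.205 and 0.179 for Cdx1.

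**Figure D4:**
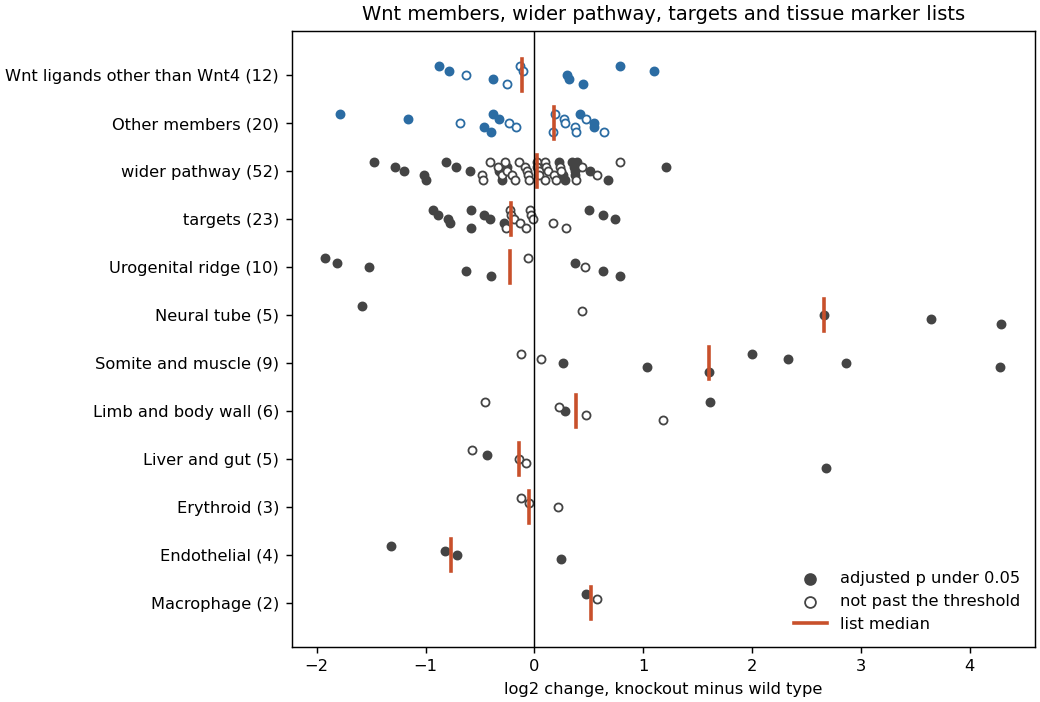
Each point is the log2 change of 1 tested gene in knockout against wild type (horizontal axis), for the Wnt ligands other than Wnt4, the other Wnt genes, the wider pathway, the targets and the tissue marker lists, with the number of genes in brackets. Filled points passed adjusted p under 0.05 and the orange bars are list medians of fitted values. The neural tube median of 2.66 is the fitted value of Nkx2-2, which like Dbx1 lay under the test limit in wild type, and it is 1.35 with both at their lower bounds.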

How the data were processed

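Total RNA of urogenital ridges was labelled with biotin, per the labels' protocols, and hybridised to CodeLink Mouse 20k arrays. The values deposited by the authors are linear spot intensities, with a column for each array. The scanner software, background correction and spot flags they used were not given in the sources used here. Values under the 5th percentile of positive values (0.0811) were set to it and log2 was taken, with no further normalization. Of 20289 probes, 15062 were tested (a value on 2 arrays of each genotype, mean log2 above the 25th percentile) with limma 3.58.1 in R 4.3.3 (trend in the variance prior), genotype as the only term, adjusted by Benjamini-Hochberg over all of them, two-sided. The fit was tested on simulated data. Means ± SD are of intensities before the floor, and each fold is the fitted log2 change taken out of the log, except for Lrp6, whose fold is a bound against the test limit. Symbols come from GEO's platform annotation, updated by Entrez identifier. The number of arrays limits the precision.

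Values per array are given for Wnt4, Ctnnb1, Axin2, Lef1 and each Wnt gene called with at least a 1.5-fold change, and the 4 with the largest called changes of the wider list and of the target list are named by the rule. The rule gives other Wnt genes values only where they are the brightest or nearest to that fold in their role; the remaining ones were named after their values were seen. Members and lists were chosen with earlier results of these data known. Equal array numbers did not pair the arrays (correlations of their deviations from the genotype means were -0.0208 to 0.00059). Alternatives were 2 normalizations, 2 filters, 2 floors, a prior without trend, a replicate block and each array left out.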

Additional observations from a re-analysis of the deposited data

How the results depend on the processing

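The fall of Wnt4 kept its call, and its fall against the other ligands its direction, in all settings that gave a value; leaving out 1 array gave log2 changes of -1.19 to -1.05 and -1.49 to -1.20, and the latter had no value without the trend or with the block, which could not change it. Leaving out 1 array gave 11 to 20 called member probes, 10 to 18 called genes and 4800 to 7317 called probes on the array. The median change of the tested Wnt genes ran from -0.16 to 0.17 when 1 array was left out, was 0.093 without the filter on dim probes and -0.20 among probes above the median probe; these filters change which genes are tested. Of the 18 called genes, 16 were also called after quantile normalization (not Fzd4 and Sfrp1). After cyclic loess 15 were (not Dkk2, Fzd4 and Sfrp1), with Tcf7l1 added, and the split over the array became 3043 higher and 2954 lower under quantile normalization and 2970 and 3028 under cyclic loess. With the replicate block 17 of the 18 were called, Fzd4 losing its call (Tcf7l1 was added, which made 18), and 6019 probes on the array, against 6221 without it. Members near the dim limit, such as Lrp6, Axin2 and Wnt8b, are limited by signal over background, which no flag in the data marks.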
